A study of Mus musculus with 10 samples.

Results

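Among stretches of 1000 bases (tiles) of the mouse autosomes, those whose DNA methylation level differed most between 10 single-embryo libraries are described here. The libraries came from whole mouse embryos at embryonic day 7.5, 5 labelled arsenic and 5 labelled control, all marked as the second experiment, and were made by reduced representation bisulfite sequencing, in which CpG-rich restriction fragments are bisulfite converted and sequenced. Dose, route and time of exposure, mouse strain and embryo sex were not stated in the labels, nor whether the embryos themselves or an earlier generation were exposed. The name of the count table carries the mark F2, which the labels do not explain. The count table numbers its libraries 1 to 10 only and its column names match no single embryo of the labels, so no library could be tied to the arsenic or the control group, and no value below is an effect of arsenic. Library numbers are those of the table.

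A tile was taken when it held 10 or more measured cytosines, was covered by 20 or more reads per cytosine on average in every library, and had library means that spanned 30 or more percentage points from the lowest to the highest library. The tile at chr13:119488000-119488999 was left out by rule. The level of a tile is the mean over its cytosines of methylated reads over coverage. Of 62981 tiles that met the limits on cytosines and coverage, 215 passed the range threshold, which is 0.341%. Since the range itself chose these 215 tiles, their ranges and levels are descriptions, and none was tested.

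Methylation of CpG cytosines is copied at cell division, because the maintenance methyltransferase acts on the new strand opposite a methylated CpG, so a methylated CpG normally carries the mark on both strands. In the early mouse embryo most sequence regains methylation around implantation, while CpG islands stay largely unmethylated and imprinted control regions keep a mark on a single parental allele. A few loci, often next to a retrotransposon, are known to differ in methylation between genetically identical mice and are called metastable epialleles.

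Coverage summed over the table was 94583116 to 127102232 reads per library, where 1 read is counted once for each CpG it covers. Over the tiles that could have been members, levels correlated between libraries with r 0.981 to 0.985 over the 45 pairs of libraries, across tiles, which are not independent replicates. The library means over these tiles lay within 2.77 points, with library 1 the lowest and library 2 the highest. In a whole embryo, a different mix of cell types and a different level within a cell type cannot be told apart.

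The sequences of 3 promoter windows inside member tiles are shown first, since they are the members where annotated gene starts and measured cytosines meet. They are RefSeq sequences of build GRCm38.p6, whose coordinates are those of mm10, from 250 bases before to 50 bases after the annotated start. They read 5′ to 3′ along the gene, and capitals mark the positions whose cytosine, on either strand, was measured in all 10 libraries.
Tex101, chr7:24672001-24672300, minus strand: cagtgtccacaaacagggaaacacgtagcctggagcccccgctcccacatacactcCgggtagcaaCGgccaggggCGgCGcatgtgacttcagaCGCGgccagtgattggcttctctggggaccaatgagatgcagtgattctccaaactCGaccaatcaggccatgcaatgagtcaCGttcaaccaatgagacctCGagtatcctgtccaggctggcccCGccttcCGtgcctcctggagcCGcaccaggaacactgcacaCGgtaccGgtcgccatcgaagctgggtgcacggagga
Jade1, chr3:41555484-41555783, plus strand: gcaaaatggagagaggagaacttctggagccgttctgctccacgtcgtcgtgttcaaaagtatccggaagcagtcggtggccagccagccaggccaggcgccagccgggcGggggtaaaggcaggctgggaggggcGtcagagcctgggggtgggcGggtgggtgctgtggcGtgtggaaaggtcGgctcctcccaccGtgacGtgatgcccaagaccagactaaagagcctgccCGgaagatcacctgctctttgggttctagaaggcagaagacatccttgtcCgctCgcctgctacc
Gm51541, chr8:83583276-83583575, minus strand: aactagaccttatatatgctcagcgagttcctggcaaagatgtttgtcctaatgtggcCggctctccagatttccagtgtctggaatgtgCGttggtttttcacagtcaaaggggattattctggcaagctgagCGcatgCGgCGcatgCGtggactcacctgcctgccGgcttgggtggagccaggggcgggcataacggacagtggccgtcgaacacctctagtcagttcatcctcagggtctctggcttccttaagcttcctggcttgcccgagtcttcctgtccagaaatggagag

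The window of Tex101, which encodes a glycoprotein of germ cells needed for sperm function in the mouse, held all 26 measured cytosines of its tile and 19 CpGs. Its tile was at 56.1, 65.5, 46.2, 66.6, 76.8, 71.7, 64.6, 65.5, 49.1 and 53.1% in libraries 1 to 10. Library 3 was lowest and library 5 highest, and the difference between these libraries was 47.2 points on the minus strand and 14.02 points on the plus strand. In the window of Jade1, a scaffold protein of a histone acetyltransferase complex that is counted among the genes with noncanonical imprinting in mouse extraembryonic tissue, 11 cytosines were measured and their mean ranged from 21.3 to 65.0% over the libraries. Gm51541 is a predicted gene whose window lay in a tile that overlaps Tecr, an enoyl-CoA reductase gene, and its 12 measured cytosines ranged from 38.1 to 68.5%. All letters at measured positions were C or G as the strand of the table required. Of the 209 members outside chromosome 18, 5 overlapped an annotated promoter window, and in the windows of Fcrlb and Gm39319 no cytosine was measured.

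Member tiles were mostly tiles of intermediate methylation, few cytosines and low coverage. The mean level over the libraries had a median of 54.8% in members, with quartiles of 48.0 and 61.6%, and of 54.6% in the other tiles, with quartiles of 14.8 and 67.9%. A mean level of 30 to 70% was found in 199 members (92.6%), against 47.8% of the other tiles, and no member was under 20%. Of all tiles of this level class, 0.659% were members. Members had a median of 12 measured cytosines and the other tiles 16. The mean coverage in the least covered library had a median of 25.9 reads in members and 34.7 reads in the other tiles, and 157 of the 215 members had a library under 30 reads per cytosine. The rule did not use the mean level, and it set only a floor on coverage and cytosines, but the attainable range depends on each of them, so these contrasts were partly fixed by the choice.

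The share of tiles past the threshold fell with depth from class to class. It was 0.859% of tiles with 20 to 25 reads in their least covered library, 0.579% at 25 to 30 reads, 0.217% at 30 to 40 reads, 0.0922% at 40 to 60 reads and 0.0380% at 60 reads or more. The typical tile changed much less over these classes, with a median range of 11.6 points in the shallowest class and 10.1 points in the deepest. By number of cytosines the share was 0.686% for tiles with 10 or 11 and 0.0326% for tiles with 30 or more. By level it was 0.809% at 40 to 60%, 0.327% at 60 to 80%, 0.392% at 20 to 40%, and 0 members were found in 17162 tiles under 20% or in 4492 tiles at 80% and above.

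**Figure D1:**
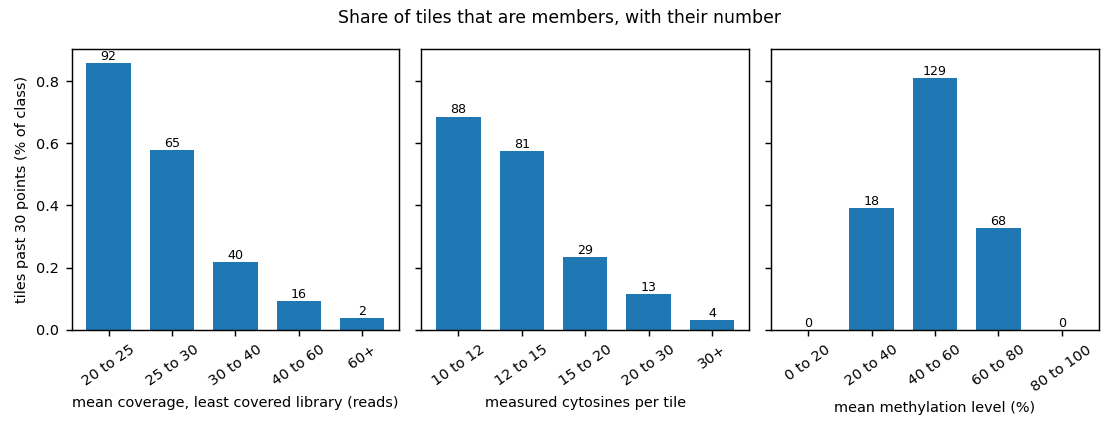
Share of tiles past the 30 point threshold in percent of all tiles of the class (y axis, the same in the 3 panels), by mean coverage in the least covered library, number of measured cytosines and mean level, with the number of members above each bar. The share falls from 0.859 to 0.0380% over the coverage classes and is highest, 0.809%, at mean levels of 40 to 60%.

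Members lay away from gene starts more often than the other tiles. Of the 209 members on chromosomes with annotated starts in the promoter table, 7 (3.35%) had their centre within 1000 bases of one, against 20.1% of 60794 other tiles. Within an annotated gene were 121 members (56.3%) and 72.2% of the other tiles, and 98 members (45.6%) overlapped a protein-coding gene, against 63.6% of the other tiles. These positions were not matched on level. Exons and introns were not analysed here. Each chromosome held between 6 and 19 members, and the share was highest on chromosome 15, with 18 of 2802 tiles, and lowest on chromosome 2, with 6 of 4706. No pair of members lay within 2 tiles of each other.

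The strands of members moved together more than those of other tiles, but in few members closely. Where a library is directional, which the labels do not state, reads of the plus and minus strands come from separate DNA strands, so each strand is a reading of its own of the same embryo at the same tile. Agreement was taken as a Pearson r of 0.7 or more over the 10 library means of the parts together with 15 or more points, in each part, between the tile's highest and lowest library. In 172 members both strands had 3 or more cytosines, and the strands agreed in 20 of them (11.6%), against 0.521% of the other tiles and 5.14% of the other tiles with a range of 20 to 30 points. The remaining 43 members had too few cytosines on a strand for the check. The median r between the strands was 0.498 in members, with quartiles of 0.329 and 0.621, against a median of 0.0734 in the other tiles and 0.343 in those with a range of 20 to 30 points. Both strands differed by 15 or more points between the extreme libraries in 145 of the 172 members, a count not made in the other tiles. In 8 members the r between the strands was below 0, and in 3 members the highest library was not above the lowest on a strand. Between the extreme libraries the wider strand differed by a median of 41.8 points and the narrower by 24.1 points. Since both strands were in the mean that chose the tile, these differences are larger than tiles taken without regard to the range would give. The same choice raises the r between strands and the share that agreed, so the contrasts with other tiles were partly fixed by it.

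Parts of a tile along the sequence agreed far more often than the strands. When the cytosines of a tile were split by position into a front and a rear set of equal size, with both strands in each, the sets agreed in 181 of 215 members (84.2%), against 6.06% of the other tiles and 54.9% of the other tiles with a range of 20 to 30 points. The median r between front and rear was 0.847 in members. Front and rear were both in the mean that chose the tile, so these contrasts too were partly fixed by the choice. In 127 members front and rear agreed while the strands did not, and all 20 members with agreeing strands also agreed front to rear. The cytosines of a member lay close together, with a median span of 195 bases, and in 76 members (35.3%) all of them lay within 150 bases, against 9.62% of the other tiles. Front and rear cytosines this close may lie on the same reads, so their agreement is not a reading of its own. Read and fragment lengths were not analysed here. In the 130 members where both comparisons could be made, front and rear cytosines of the same strand correlated with a median r of 0.823 and the strands with each other with a median r of 0.516, and the first was above the second in 114 of them.

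Where the cytosines of a tile lay further apart, fewer parts moved together. In 37 members with groups of cytosines over 100 bases apart, the median r between the first group and the rest was 0.758 and 23 agreed. Only 5 members had 3 or more cytosines on either side of a gap of over 300 bases, with a median r of 0.354 between the sides, against 0.0547 in 4316 other tiles with such a gap, and in none of the 5 did the sides reach an r of 0.7. Groups and sides were likewise parts of the mean that chose the tile. The sides differed about equally in 2 of the 5, by 36.6 and 30.2 points at chr17:46652000-46652999 and by 32.4 and 29.3 points at chr8:30100000-30100999. At chr11:20021000-20021999 they differed by 36.3 and 2.98 points. The sides were also unequal in the tile in Azin2, where the extreme libraries differed by 11.7 points on one side of the gap and 37.1 on the other, and in the tile in Grk3, with 16.2 and 51.97 points.

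**Figure D2:**
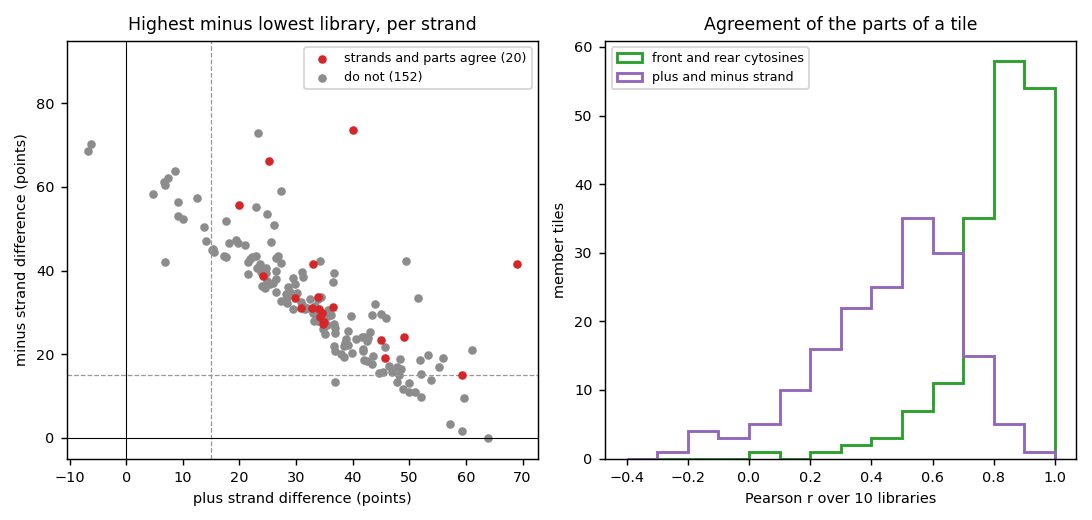
Left: difference between the highest and the lowest library of each tile on the plus strand (x axis, points) and the minus strand (y axis, points) for the 172 members with 3 or more cytosines on each strand, the dashed lines at 15 points. Right: number of these members by Pearson r over the 10 libraries, between strands and between front and rear cytosines. Red points are the 20 members that pass both checks. Most strand values lie below 0.7, with a median of 0.498, and most front to rear values above it.

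A wide range on a single strand seldom appeared on the other. Among 54758 tiles with 5 or more cytosines on each strand, 2250 had a range of 30 or more points on the plus strand, where the median difference was 33.9 points. On the minus strand, which was not used to pick these tiles or their libraries, the same libraries differed by a median of 2.64 points, and 90.3% of the tiles were under 15 points. Of the 2250 tiles, 18 had 30 or more points on the minus strand. Picked on the minus strand instead, 2280 tiles had a median of 33.7 points there and of 2.26 points on the plus strand, and 17 had 30 or more points on the plus strand. This comparison was chosen after the strand values of the members had been seen.

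The widest member was chr5:22787000-22787999, which lies in Lhfpl3 (chr5:22746054-23275597), a gene for a tetraspan membrane protein. Its 13 cytosines, 9 on the plus and 4 on the minus strand, averaged 16.5, 52.4, 31.8, 40.4, 66.9, 25.6, 35.4, 38.0, 49.3 and 45.02% in libraries 1 to 10. Library 5 was above library 1 at all 13 cytosines, and the means of the other 8 libraries were spread between them. On the plus strand the level was 62.5% in library 5 and 22.5% in library 1, and on the minus strand 76.7% in library 5 and 2.94% in library 1, so the difference was 40.02 and 73.7 points. Library 6 was as low as library 1 on the plus strand, at 22.5%, and was at 32.5% on the minus strand. The strands correlated with r 0.865. The mean coverage of the least covered library was 28 reads over all 13 cytosines. The 4 minus strand cytosines had 17.75 reads in library 1 and 22.5 reads in library 5. Taking that mean coverage per cytosine as the number of molecules, the 95% Wilson intervals of library 5 and library 1 did not overlap, also when coverage was halved.

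The tile chr6:28928000-28928999, in Snd1 (chr6:28480337-28935162), whose product is an RNA-binding protein with nuclease and tudor domains, was the member whose strands correlated most, with r 0.934. Its 21 cytosines averaged 69.3, 25.2, 74.6, 63.5, 39.4, 57.6, 29.9, 73.6, 70.4 and 56.1% in libraries 1 to 10. Libraries 2, 7 and 5 were low, between 25.2 and 39.4%, and the other 7 lay between 56.1 and 74.6%, so the range did not rest on a single library. The second highest and the second lowest library differed by 43.7 points, the most of any member, where the median of members was 17.4 points. Library 3 stood above library 2 at all 21 cytosines. On the plus strand these libraries were at 80.3 and 11.3%, and on the minus strand at 72.3 and 30.8%. Plus strand coverage was as low as 11 reads in a library, and the intervals of library 3 and library 2 no longer separated once coverage was halved.

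The next widest member shows the other pattern. It lies at chr1:172009000-172009999 in Vangl2, a core gene of planar cell polarity, and its 14 cytosines averaged 34.9, 30.4, 25.6, 48.0, 37.6, 16.2, 34.8, 39.0, 27.9 and 64.4% in libraries 1 to 10. Library 10 was above library 6 at all 14 cytosines and front and rear correlated with r 0.938. The strands correlated with r 0.422. On the plus strand library 10 was at 55.8% and library 6 at 32.5%, which was above the 20.9% of library 3. On the minus strand library 10 was at 73.0% and library 6 at 0%, from a mean coverage of 12 reads. With each read taken as 1 molecule, this allows a level of up to 25% for counting error alone. In this tile the methylated and unmethylated counts were both even in 67.1% of count pairs. Fewer molecules than reads would allow a higher level.

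**Figure D3:**
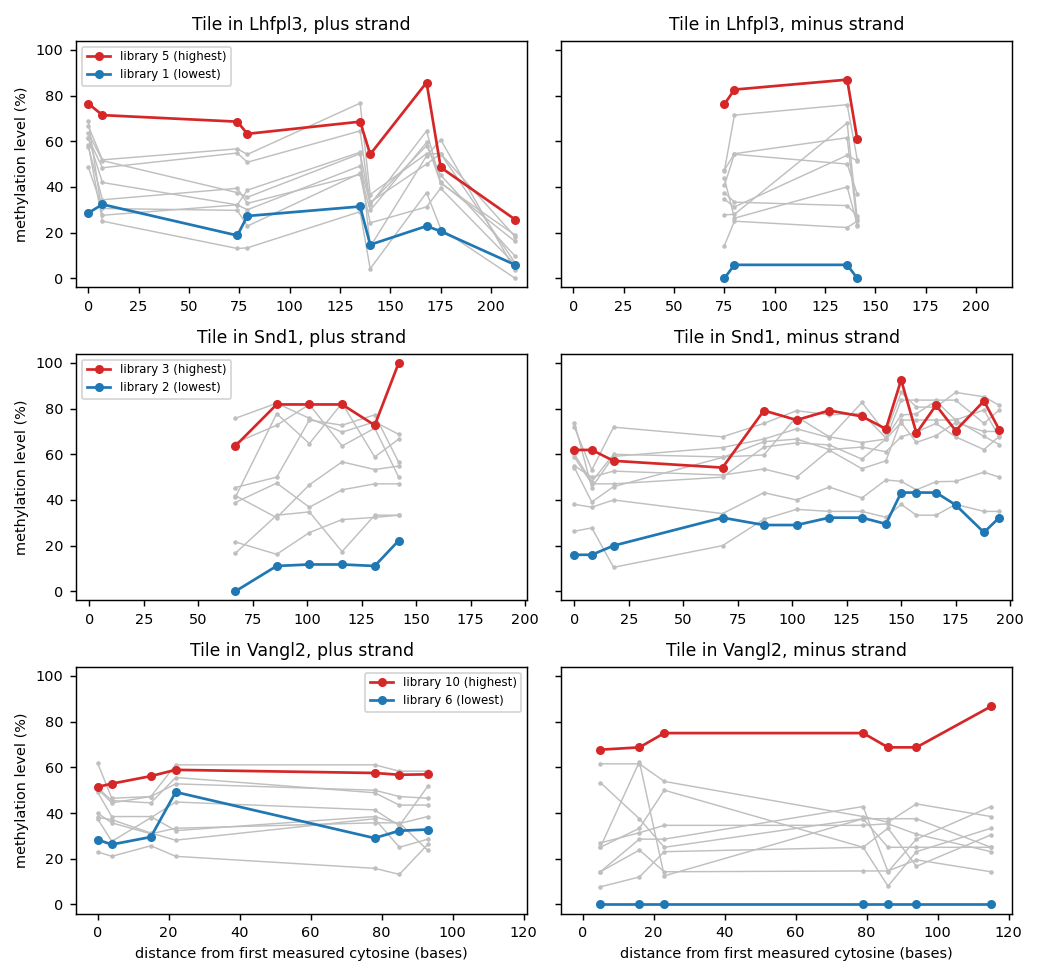
Methylation level in percent (y axis) of each measured cytosine by its distance in bases from the first measured cytosine (x axis), plus strand left and minus strand right, for the tiles in Lhfpl3, Snd1 and Vangl2. Red is the highest and blue the lowest library of the tile, and grey lines are the other 8. In Snd1 library 2 is low on both strands together with other libraries, and in Vangl2 library 6 is at 0% on the minus strand but within the other libraries on the plus strand.

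The other members with agreeing strands and front and rear cytosines were of smaller range, and 15 of the 20 are described. Within genes, the tile in Cfhr3, a complement factor H-related gene, had a lowest, median and highest library of 37.7, 64.1 and 83.4%. Its differences were 25.2 points on the plus and 66.2 on the minus strand, where library means were as low as 10 reads. The tile in Slc14a2, a urea transporter gene of the kidney, was at 23.0, 48.1 and 59.6%. The tile in Tiam2, an exchange factor for the GTPase Rac, was the member of lowest mean level, at 22.6%. Its lowest, median and highest library were at 7.60, 20.4 and 41.9%. Over both strands it had 40.8 reads or more in every library, but its minus strand had library means as low as 11.8 reads. In each of these tiles the widest gap between neighbouring libraries lay at an end, next to a single library. With cytosines covered 20 times or more in every library alone, the Cfhr3 tile had a range of 28.7 points in place of 45.7. The 6 cytosines kept were those of its plus strand, so this is the plus strand range and not a separate check.

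Of the tiles in genes of enzymes and channels, the one in Prep, a prolyl endopeptidase gene, had a lowest, median and highest library of 51.7, 72.3 and 84.5%. These libraries differed by 59.4 points on the plus and 15.1 on the minus strand, with library means as low as 11.75 reads on the plus strand. Weighting by reads, the Prep tile had a range of 19.6 points in place of 32.8. The tile in Grk3, a kinase of G protein-coupled receptors, was at 43.5, 63.3 and 76.2%, a range of 32.7 points that became 16.0 points when weighted by reads. The tile in Azin2, an antizyme inhibitor of polyamine metabolism, was at 31.4, 47.5 and 63.4%, and that in Kcnn3, a calcium-activated potassium channel, at 30.3, 43.1 and 62.3%. The tile in Naip3, annotated as a pseudogene, was at 50.2, 65.2 and 81.9%.

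The other 5 members with agreement ranged over 30.4 to 31.5 points. They lay in Cfap58, a gene of cilia and flagella, 566 bases from Ndufb2, which encodes a subunit of respiratory complex I, 8796 bases from Dcdc2c, 7474 bases from Gm32468 and 61321 bases from Gm8278. The strand r of the Cfap58 tile was 0.850.

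Outside genes, the tile 7095 bases from Ubald2 was at 13.3, 22.7 and 45.6% in its lowest, median and highest library. Libraries 2, 4 and 5 were at 42.4, 45.6 and 43.5% there and the other 7 were between 13.3 and 30.8%, so several libraries were high. Its strands differed by 34.0 and 30.7 points, with r 0.771. The tile 5972 bases from Btbd11 was at 13.4, 34.6 and 49.6%, that 5884 bases from Vmn1r23, a vomeronasal receptor gene, at 40.3, 58.0 and 75.1%, that 46309 bases from Ttc34 at 36.9, 54.3 and 70.7%, and that 47291 bases from the long noncoding RNA gene Gm33912 at 34.7, 50.97 and 67.0%. With cytosines covered 20 times or more in every library alone, the ranges became 19.9 points near Btbd11 and 15.3 points near Ttc34, in place of 36.2 and 33.7 points. The 6 cytosines kept near Btbd11 were those of the plus strand, and only 2 were kept near Ttc34. At the tile near Vmn1r23 the 8 libraries between the extremes lay within 7.22 points of each other.

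**Figure D4:**
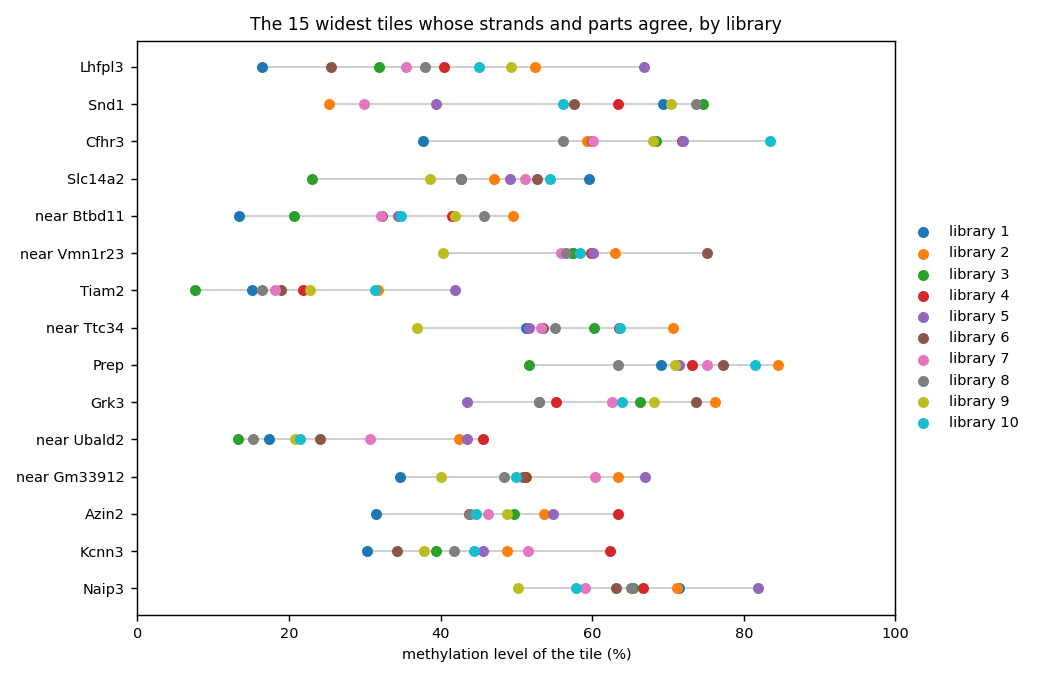
Methylation level in percent (x axis) of the 15 widest members whose strands and whose front and rear cytosines agree (rows, named by the gene that holds the tile or lies nearest), 1 point per library, coloured by library number. In the row of Snd1 libraries 2, 7 and 5 sit apart below the other 7, and in the row near Vmn1r23 library 9 is low and library 6 high with the other 8 close together.

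Of members with both strands measured, the 5 widest whose strands or whose front and rear cytosines did not agree were those in Vangl2, Eef2k, Iqsec1 and Klhl33 and the one 17246 bases from Carlr. In Eef2k, the kinase of elongation factor 2, the lowest, median and highest library were at 31.0, 54.9 and 76.8%. Its strands differed by 49.3 and 42.3 points between these libraries, both large, but correlated over the 10 libraries with r 0.559 only. Iqsec1, an exchange factor for ARF GTPases, whose tile also overlaps the pseudogene Ppp1r2-ps2, had 32 cytosines within 132 bases, at 25.8, 45.9 and 68.3%, with a strand r of 0.552. The tile in Klhl33 was at 22.9, 44.7 and 62.1%, with a strand r of 0.312, and the tile near Carlr at 43.9, 59.0 and 82.4%, with a strand r of 0.338.

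Among the 43 members without a strand check, some were as wide. The tile 3018 bases from Platr11, with 11 plus strand cytosines and 1 on the minus strand, was at 20.8, 37.0 and 64.7% in its lowest, median and highest library. The tile in Ttbk1, a tau tubulin kinase gene, had 11 cytosines on the minus strand alone and was at 34.04, 44.95 and 75.6%. Libraries 4 and 10 were high there, at 75.6 and 71.1%, and the other 8 lay between 34.04 and 55.8%.

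A mean of 40 or more reads per cytosine in every library was found in 18 members, but the strands of a tile could differ in depth. The deepest, at chr19:6623000-6623999, 29661 bases from the pseudogene Hmgb1-ps4, with 75.3 reads or more, was at 36.3, 54.3 and 71.0% in its lowest, median and highest library, and differed by 62.1 points on the minus but 7.32 points on the plus strand. Its minus strand had library means of 12 to 33 reads and its plus strand 124 to 199 reads. The tile in Jdp2, a repressor of AP-1 transcription factors, with 48.8 reads or more, was at 18.8, 41.5 and 56.3%, with differences of 55.99 points on the plus strand, at 20.2 to 56.2 reads, and 18.98 points on the minus strand, at 77.5 to 135 reads. A tile in Elf5, a transcription factor of the trophoblast lineage, with 47.9 reads or more, was at 20.2, 39.5 and 52.7%, with differences of 30.1 and 34.7 points, 39.3 reads or more on each strand and a strand r of 0.488. Of the 18 deep members, those in Azin2 and Tiam2 were among the 20 whose strands agreed. The Azin2 tile had library means of 41.3 reads or more on each strand. The Tiam2 tile had 61.1 to 98.5 reads on the plus strand and 11.8 to 43.5 reads on the minus strand. Mean coverage was taken as the number of molecules. The Wilson intervals of the highest and the lowest library then did not overlap in 103 of the 215 members, and in 7 with coverage halved. The same count was not made in the other tiles. The intervals cover counting error only. They are also chosen extremes of 10 libraries, so separated intervals are no test.

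A pair of members lay near imprinted genes. Within 5 kb of the 42 annotated genes of a list of imprinted genes lay 154 tiles that could have been members. Their median range was 11.9 points where all tiles had 10.5, and 2 of them passed the threshold (1.30%, against 0.341% of all tiles). This share rests on 2 tiles and was not matched on level. Both tiles had a mean level between 30 and 70%, a class in which 0.659% of all tiles were members. The tile chr7:143295000-143295999 overlaps Kcnq1ot1, the imprinted noncoding RNA gene inside Kcnq1, and its 20 cytosines averaged 25.8, 44.0, 34.9, 34.1, 37.3, 33.6, 45.2, 28.1, 38.2 and 56.0% in libraries 1 to 10. Library 10 was highest and library 1 lowest, with 38.5 points on the plus and 21.9 points on the minus strand, but the strands correlated with r 0.264. The tile chr3:41555000-41555999 in Jade1, whose promoter window is printed above, had 43.2, 45.9, 63.4, 61.5, 57.8, 46.6, 27.2, 41.6, 45.5 and 52.8% in libraries 1 to 10. Its highest and lowest libraries, 3 and 7, differed by 56.5 points on the minus and 9.20 points on the plus strand. With cytosines covered 20 times or more in every library alone, its range was 16.0 points in place of 36.2. The 6 cytosines kept were those of the plus strand. Near the 16 genes of a list of loci with variably methylated retrotransposons known from inbred mice, 43 tiles could have been members, with a median range of 9.11 points, and 0 were members.

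The libraries did not take equal turns at the ends. Library 2 was the highest in 52 members (24.2%, against 16.7% of the other tiles), library 4 in 50 (23.3%, against 15.9%) and library 5 in 38 (17.7%, against 12.7%). Library 3 was the lowest in 52 (24.2%, against 10.3%), library 1 in 48 (22.3%, against 16.6%) and library 9 in 29 (13.5%, against 15.2%). Library 9 was the highest in 1 member. Libraries 2 and 4 were also the highest in mean level over all tiles and libraries 1 and 9 the lowest, whereas library 3 was not low there, at 45.3% where the library means ran from 44.1 to 46.9%. Library 4 had the lowest coverage in members, with a median of 31.0 reads per cytosine where library 10 had 40.5. Libraries 5, 3 and 2 came next, at 33.6, 34.25 and 35.6 reads, while libraries 1 and 9 had 37.2 and 38.6. Summed over the table, coverage was lowest in libraries 4, 5 and 2, the libraries most often the highest. Whether depth placed libraries at the ends was not tested. Across the 10 libraries the level of a member correlated with the library means with a median r of 0.409, and with its own coverage with a median r of -0.01. Between members, profiles over the libraries had little in common, with a median r of 0.149 over 23005 pairs and of 0.0900 after the library means were subtracted.

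Few tiles next to members followed them closely over the libraries. Tiles within 2 kb of a member that were no members themselves and had 3 or more cytosines were found beside 103 members, 147 in all. Their r with the member over the 10 libraries had a median of 0.243, and 10 reached 0.7. The libraries that were the extremes of the member differed by a median of 3.10 points in the neighbour, in the same direction in 100 of 147, and by 15 points or more in 20. Beside the tile in Klhl33, the next tile differed by 41.5 points with r 0.774, from 12.2 reads in its least covered library. Beside the tile in Elf5, neighbours differed by 29.7 points with r 0.687 and by 21.8 points with r 0.460. The same measure was not taken beside other tiles. Beside the 20 members with agreeing strands and front and rear cytosines there were 19 such neighbours, with a median r of 0.206 and a median difference of 3.24 points. Neighbours were not used by the rule, but they share library and depth with the member.

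The threshold cut through a continuous range of tiles. Just inside it were the tiles in Pde4dip, a scaffold protein of centrosome and Golgi, and in 2310008N11Rik, each with a range of 30.02 points, and the tile 10504 bases from Gm11263 with 30.04 points. Just outside were 3 tiles with 29.98 points, in Gm13880, 15062 bases from Gm6226 and 21203 bases from Gm23831. The median range of members was 32.1 points, and 9 members reached 40 points.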

How the data were processed

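The authors deposited read counts per CpG cytosine in methylKit's columns, per the file headers: coverage, methylated and unmethylated counts for 10 libraries, not normalized. Per the submitters' processing notes, Bismark, Trim Galore and methylKit were used with build mm10; versions, settings and any removal of duplicates were not stated. In the table, every cytosine had a coverage of 10 or more in all libraries and strands were kept apart. The 30 per-sample columns match no sample's label, so the planned comparison of arsenic with control embryos was not run.

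Levels, ranges and agreement were computed with Python 3.11.15, numpy 2.4.6, pandas 2.3.3 and scipy 1.17.1 and tested on simulated data. The simulated counts were drawn independently for each cytosine. Reads shared between cytosines or counted more than once were therefore not simulated. Wilson intervals used mean coverage per cytosine as the number of molecules. They cover counting error only, since reads carry no molecular identifiers. Methylated and unmethylated counts were both even in a median of 42.9% of a member's count pairs and 37.9% in other tiles. The upper quartiles were 64.7 and 52.1%. The share was 35.4% in the Lhfpl3 tile, 32.4% in the Snd1 tile and 67.1% in the Vangl2 tile. Where a molecule is counted more than once, coverage overstates the number of molecules. The part of even counts in the ranges was not tested. Genes came from RefSeq GRCm38.p6. Of 43 imprinted list genes 42 were annotated. Promoter windows on chromosome 18 were not used here. Members, lists and named tiles were chosen with earlier results of these data known. Named were the 15 widest members whose strands and whose front and rear cytosines agree, the 5 widest that do not, 3 tiles on either side of the threshold and members within 5 kb of a listed gene. Tiles in promoters and the deepest tiles were added after their values were seen. Alternatives covered coverage, cytosine number, weighting, strands, threshold, tile position and each library left out.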

Additional observations from a re-analysis of the deposited data

How the results depend on the processing

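The number of tiles past the threshold, 215, depended on the limits. Some limits also changed how many tiles could be members, so shares are given beside the counts (0.341% for the 215). The count was 589 (0.786%) with a mean coverage of 10 or more and 18 (0.0795%) with 40 or more. With 5 or more cytosines it was 1170 (1.03%) and with 20 or more 17 (0.072%). Summing the strands of a CpG to 1 row left 37968 tiles that could be members and gave 102 (0.269%), 62 of them among the 215. A threshold of 40 points gave 9 (0.0143%). Comparing the second highest and second lowest library gave 4 (0.00635%). Added after seeing the data, 28 tiles (0.0469% of 59681) had 30 or more points on each strand. With library means subtracted, also added then, 162 tiles (0.257%) passed, 152 of them among the 215. Read-weighted levels gave 150 tiles (0.238%), 116 of them among the 215. Shifting tiles by 500 bases gave 217 (0.345%), whose overlap with the 215 was not computed. Leaving out each library in turn gave 170 to 202 tiles (0.268 to 0.319%). The 20 members whose strands and whose front and rear cytosines agree became 80 at r of 0.5 or more, 1 at 0.9 or more, 17 at 20 or more points, 1 with front and rear taken as 500 bases each, where only 43 members have 3 cytosines on each side, and 20 to 33 with a library left out, 33 without library 6. Of the named tiles, 2 of 28 moved by more than the SD over libraries with read-weighted levels, those in Prep and Grk3. With cytosines covered 20 times or more, 6 of 27 moved: Prep (15.1 points), Grk3 (11.9), Jade1, Cfhr3 and the tiles near Btbd11 and Ttc34. In Prep, Jade1, Cfhr3 and near Btbd11 this limit kept a single strand, so it repeats the strand values. In Grk3 and near Ttc34 it kept 3 and 2 cytosines. No paired analysis was possible because the libraries of the table carry none of the labels' replicate numbers. A library under 30 reads per cytosine was found in 157 members. Of all 62981 tiles, 10709 had 20 to 25 reads in their least covered library and 11229 had 25 to 30. The part of depth in the ranges was not tested.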
